A study of Mus musculus with 96 samples.

Results

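The distal convoluted tubule (DCT) and the connecting tubule (CNT) that follows it were compared in 12 microdissected tubule samples from 6 mice, out of 93 bulk samples from 53 mice in the whole series. Members were the samples whose titles carry DCT or CNT: 6 samples from 3 DCT mice and 6 samples from 3 CNT mice, with 2 pieces of tubule per mouse. Both groups came from kidneys of male C57BL/6 mice aged 6 to 8 weeks with free access to chow and water, and the labels give no treatment, transgene or mutation for either. The series measured gene expression by RNA sequencing of dissected segments along the whole renal tubule, and 3 further samples prepared on the 10X single-cell platform were not analysed here. A dissected piece holds every cell type of its stretch of tubule, so in these bulk samples fewer cells of a type and less RNA per cell cannot be told apart.

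The DCT is the short segment after the macula densa that reabsorbs sodium chloride through the thiazide-sensitive cotransporter NCC and magnesium through the channel TRPM6. The CNT takes over with the amiloride-sensitive epithelial sodium channel ENaC, which responds to aldosterone, secretes potassium, reabsorbs calcium and, in part of its cells, carries the vasopressin-regulated water channel. Acid- and base-secreting intercalated cells are interspersed among the transporting cells of the CNT, and the late DCT shares several transport proteins with the CNT.

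Transcript levels are given as TPM, a relative transcript abundance scaled for transcript length and for the total of each library, and a mouse's level is the back-transformed mean of log2(TPM + 1) over its 2 pieces. Levels below are in the order of mice 1, 2 and 3 of each segment, and mice of the same number in DCT and CNT were treated as different animals. The 2 pieces of a mouse correlated across genes with r of 0.992 to 0.994 (genes are not independent replicates), and each mouse had 12568 to 13296 genes at 1 TPM or more. The median absolute log2 difference over genes was 0.132 between mice of the same segment and 0.446 between a DCT and a CNT mouse. A gene was called different at a Benjamini-Hochberg adjusted p under 0.05 and a log2 difference of at least 1, from limma on log2(TPM + 1). Log2 differences are DCT minus CNT, with the standard error (SE) of the limma fit, and they understate the change of genes near 0 TPM.

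Both labels matched the defining transcripts. Slc12a3 (ENSMUSG00000031766), which encodes NCC, stood at 5879.7, 5520.3 and 5824 TPM in DCT and at 0.127, 0.789 and 0.04 TPM in CNT (log2 difference 12.13, SE 0.36, adjusted p 3.39e-28 by limma). Aqp2 (ENSMUSG00000023013), the vasopressin-regulated water channel, stood at 91.5, 150.3 and 65.6 TPM in DCT and at 5993, 7501 and 5042 TPM in CNT (log2 difference -5.96, SE 0.52, adjusted p 2.75e-12). For both genes the DCT and CNT mice were far apart. Slc12a3 was at 1.27 TPM or below in each of the 6 CNT pieces, while Aqp2 in the 6 DCT pieces ranged from 21.8 TPM in piece a to 194 TPM in piece b of DCT mouse 3.

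Across all 33793 genes tested, 514 were called higher in DCT (1.52%) and 1251 higher in CNT (3.7%), together 1765 genes (5.22%). Among the 13236 genes at 1 TPM or more in at least 3 of the 6 mice, called expressed genes below, 13.1% were called, 3.79% higher in DCT and 9.32% higher in CNT. These shares of the expressed genes are the background for the gene lists. The median log2 difference was -0.02 over all tested genes and -0.30 over the expressed ones. The lean towards CNT depended on the scaling: DCT genes made up 29.1% of the calls on TPM as deposited, 46.8% (740 against 842) after median ratio rescaling and 45.9% (642 against 756) after quantile normalization. The median over expressed genes was 0.01 under the first rescaling and -0.0064 under the second. The 10 most abundant genes of a mouse took 16.4% to 18.8% of all TPM in DCT and 9.39% to 9.98% in CNT. Mice of the DCT and CNT did not overlap for 34.1% of all tested genes and for 69.6% of the expressed genes. Non-overlap was thus common, and for genes already called it is a description and no further support.

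**Figure D1:**
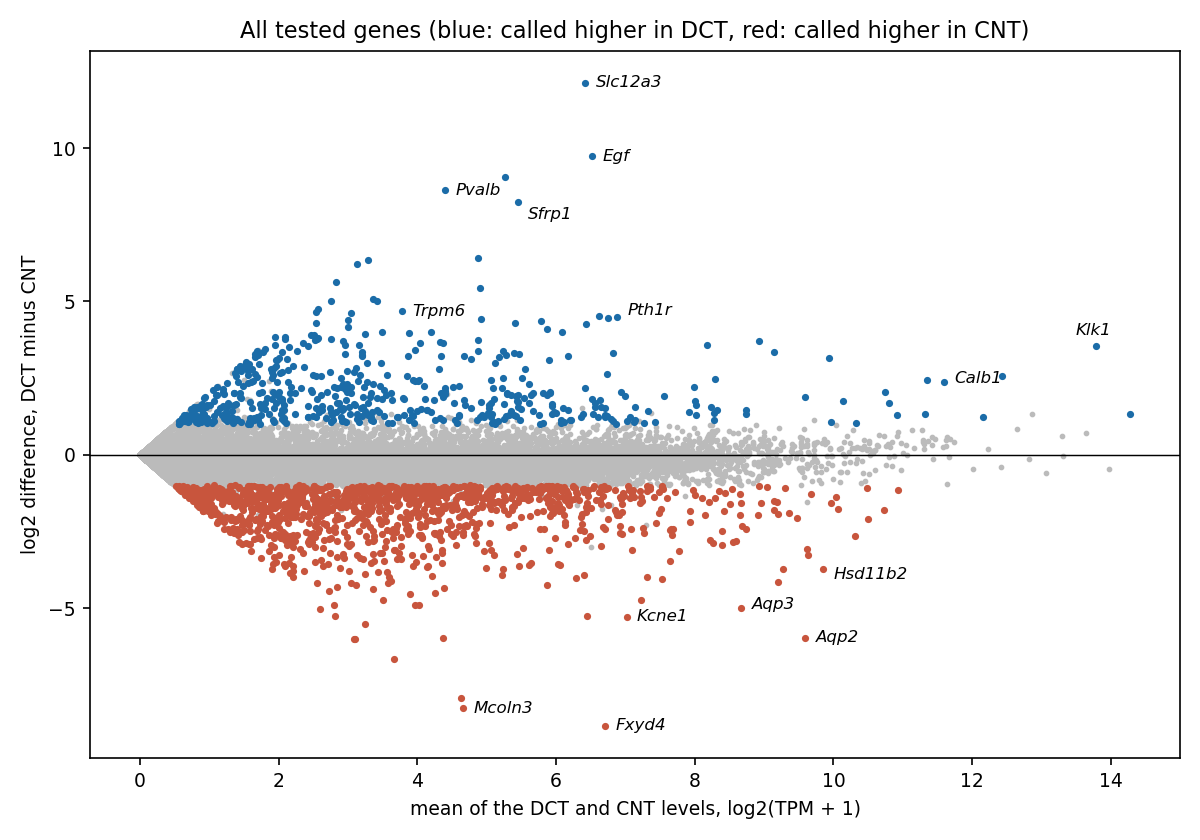
Each point is 1 of the 33793 tested genes, with the mean of its DCT and CNT levels on the x axis (log2(TPM + 1)) and its log2 difference, DCT minus CNT, on the y axis; blue and red points are the 514 genes called higher in DCT and the 1251 called higher in CNT. Slc12a3 at 12.13 and Fxyd4 at -8.84 mark the upper and lower ends.

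After Slc12a3, the genes with the largest differences towards DCT were Egf, Ppp1r1a, Pvalb and Sfrp1. Ppp1r1a, an inhibitor of protein phosphatase 1, was at 964, 840.4 and 851 TPM in DCT and at 0.31, 1.71 and 0.32 TPM in CNT (log2 difference 9.05, SE 0.41, adjusted p 7.37e-22 by limma). Sfrp1, a secreted antagonist of Wnt signalling, was at 702, 757 and 819.8 TPM in DCT and at 1.43, 1.71 and 1.4 TPM in CNT (8.24, SE 0.33, adjusted p 1.73e-23). Both were abundant in every DCT mouse and near 0 in every CNT mouse. Lrrc52, an auxiliary subunit of potassium channels, was at 47.6, 49.8 and 49.3 TPM in DCT and listed at 0 in all 6 CNT pieces. Uroc1, the urocanate hydratase of histidine breakdown, was at 78.9, 69.9 and 73.7 TPM in DCT and at 0.00499, 0.0296 and 0.00995 TPM in CNT (6.21, SE 0.30). Ggt1 (6.42), Gpx6 (5.43), Ppp1r1b (5.09), Fam107a (5.03) and Abca13 (4.74) completed the 12 largest log2 differences. The ranking took called genes at 10 TPM or more whose mice did not overlap.

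Towards CNT, the largest difference belonged to Fxyd4, a regulatory subunit of the sodium pump. Its level was 4.21, 2.62 and 5.16 TPM in DCT and 2239, 2754 and 1803 TPM in CNT (log2 difference -8.84, SE 0.51, adjusted p 6.1e-18 by limma). Mcoln3, a cation channel of the mucolipin family, was at 0.155, 0.04 and 1.46 TPM in DCT and at 429.7, 554 and 366 TPM in CNT (-8.27, SE 0.29, adjusted p 4.25e-26). Both were abundant in every CNT mouse and low in every DCT mouse. Kcne1, an auxiliary subunit of the potassium channel Kcnq1, was at 21.7, 15.4 and 22.9 TPM in DCT and at 798, 853 and 774 TPM in CNT (-5.29, SE 0.23, adjusted p 3.23e-22). Apela, a peptide ligand of the apelin receptor, was at 11.6, 13.4 and 14.5 TPM in DCT and at 526, 585 and 509 TPM in CNT (-5.26, SE 0.23). Tldc2 (-7.92), the keratin Krt23 (-6.01), Bglap3 (-6.01), Tmem229a (-5.96), Aqp2, the collagen Col26a1 (-5.52), the receptor Npy6r (-5.28) and Spock3 (-5.02) were the others of the 12 largest. The 12 were ranked among genes whose mice did not overlap, so their separation was fixed by the selection. Bglap3 belongs to a cluster of near-identical osteocalcin genes, among which reads may have been split.

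The stretches just before the transcription starts of 3 of these genes are shown, because Slc12a3 and Aqp2 define the segments and Fxyd4 had the largest difference towards CNT. Each run is the 250 bases before the start in RefSeq, written 5′ to 3′ on the gene's strand, with matches to the searched motifs in capitals.
Slc12a3 (GRCm38.p6, chr8:94328958-94329207, plus strand): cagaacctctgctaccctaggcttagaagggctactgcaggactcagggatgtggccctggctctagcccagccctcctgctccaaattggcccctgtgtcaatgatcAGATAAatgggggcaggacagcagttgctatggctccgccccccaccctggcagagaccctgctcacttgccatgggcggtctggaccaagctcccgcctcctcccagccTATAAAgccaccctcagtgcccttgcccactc
Aqp2 (GRCm38.p6, chr15:99578806-99579055, plus strand): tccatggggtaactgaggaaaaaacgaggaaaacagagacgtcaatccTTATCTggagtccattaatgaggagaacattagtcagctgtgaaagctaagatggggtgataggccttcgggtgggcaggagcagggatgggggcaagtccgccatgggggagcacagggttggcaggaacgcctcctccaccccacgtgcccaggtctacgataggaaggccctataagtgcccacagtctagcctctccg
Fxyd4 (GRCm38.p6, chr6:117937336-117937585, minus strand): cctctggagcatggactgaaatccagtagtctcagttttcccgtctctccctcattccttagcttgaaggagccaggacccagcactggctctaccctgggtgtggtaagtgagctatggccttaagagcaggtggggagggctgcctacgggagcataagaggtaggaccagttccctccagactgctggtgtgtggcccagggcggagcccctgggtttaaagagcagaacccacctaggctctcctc
The motif searched for GATA factors was AGATAA. The motif searched for forkhead factors was TGTTTAC. The motif searched for the core promoter element bound by TBP was TATAAA. Each was searched on both strands, and no matches overlapped. The Slc12a3 stretch holds the first motif from base -142 and the last from base -32, the Aqp2 stretch holds the first on the opposite strand from base -202, and the Fxyd4 stretch holds none of the 3. The first motif is in 10.3% of the 27025 promoters of this length, in 8.29% of the 16153 promoters found for tested genes, in 7.32% of the 369 promoters found for genes called higher in DCT and in 6.7% of the 925 found for genes called higher in CNT. The forkhead motif is in 3.09%, 2.69%, 2.98% and 2.81% of the same sets, and the last motif in 13%, 9.97%, 11.4% and 9.51%. A match says only that these letters are present.

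Sodium chloride transport was described by 14 genes of the NCC pathway, 13 of them tested: 5 were called higher in DCT and 0 higher in CNT (limma; 1 higher in CNT at an unadjusted p under 0.05), with a median log2 difference of 0.23. The background called higher in DCT was 3.79%, and the called members were Slc12a3, Ppp1r1a and 3 regulators of NCC. Wnk1, whose kidney-specific form lacks the kinase domain, was at 1147, 957 and 918 TPM in DCT and at 71, 77.6 and 103 TPM in CNT (3.58, SE 0.24, adjusted p 1.23e-15), and gene-level values do not separate its forms. Wnk4, the kinase that switches NCC on through SPAK, was at 509, 497 and 492 TPM in DCT and at 203, 196 and 178 TPM in CNT (1.38, SE 0.25, adjusted p 6.07e-05). Klhl3, the adaptor that marks WNK kinases for degradation, was at 29.8, 24.9 and 24.6 TPM in DCT and at 2.45, 2.89 and 2.04 TPM in CNT (2.99, SE 0.28, adjusted p 1.8e-11). All 3 regulators had every DCT mouse above every CNT mouse, and the mice were apart for 69.6% of the expressed genes.

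The kinase and basolateral channels that work with NCC were closer between the segments. Stk39, which encodes SPAK, was at 83.9, 72.6 and 80.8 TPM in DCT and at 130.2, 126 and 109 TPM in CNT, a log2 difference of -0.62 (95% interval -0.99 to -0.24, adjusted p 0.02 by limma) below the size threshold. Bsnd, which encodes the chloride channel subunit barttin, had overlapping mice at 330.4 to 348 TPM in DCT and at 329 to 339 TPM in CNT and differed by 0.021 (95% interval -0.44 to 0.48). Kcnj10, a basolateral potassium channel, differed by 0.23 (-0.24 to 0.70). Its partner Kcnj16 was at 403, 418 and 419.7 TPM in DCT and at 223, 196 and 221 TPM in CNT, a difference of 0.96 (0.52 to 1.40, adjusted p 0.00137) just under the size threshold, which it passed under both rescalings, at 1.11 (adjusted p 0.00177) under quantile normalization. Wnk3 did not pass the filter on low values.

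Magnesium handling was represented by 12 genes, all tested, of which 6 were called higher in DCT and 1 higher in CNT, with a median of 0.86. Trpm6, the apical magnesium channel, was at 62.5, 69.5 and 74.6 TPM in DCT and at 1.43, 1.93 and 1.84 TPM in CNT, where its mean was 2.52% of the DCT mean (log2 difference 4.68, SE 0.23, adjusted p 1.27e-20 by limma). Its relative Trpm7 was at 159, 95.8 and 119 TPM in DCT and at 29.8, 28.7 and 27 TPM in CNT (2.06, SE 0.20, adjusted p 6.59e-11). Cnnm2, a basolateral protein required for magnesium balance, was at 105, 136 and 124 TPM in DCT and at 11.1, 10.8 and 9.76 TPM in CNT (3.40, SE 0.28, adjusted p 5.3e-13). The DCT and CNT mice did not overlap for these 3 genes, as for 69.6% of the expressed genes.

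Egf, the precursor of epidermal growth factor, which stimulates TRPM6, was at 3606, 1908 and 2782 TPM in DCT and at 1.11, 7.26 and 0.769 TPM in CNT (log2 difference 9.74, SE 0.40, adjusted p 3.08e-23 by limma). Its receptor gene Egfr went the other way, at 3.97, 3.21 and 4.15 TPM in DCT and at 12.5, 11.7 and 12.2 TPM in CNT (-1.46, SE 0.24, adjusted p 6.82e-06). Fxyd2, the gamma subunit of the sodium pump, was at 14349, 13123 and 13062 TPM in DCT and at 2157, 2133 and 2481 TPM in CNT (2.58, SE 0.20). Pcbd1, a transcriptional cofactor, was also called (1.32, SE 0.18). Egf was also abundant in the cortical thick ascending limb (CTAL) before the DCT, at 16498 ± 2264 TPM (SD, n = 5). Slc12a1, the transporter that defines the thick limb, was at 71.7, 5.92 and 1.17 TPM in DCT and at 6131 ± 836 TPM in CTAL, and DCT mouse 1 was the highest DCT mouse for both Slc12a1 and Egf. The part of thick-limb transcripts in the Egf difference was not tested.

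Calcium handling included 13 genes, 12 of them tested, of which 8 were called higher in DCT and 0 higher in CNT (limma; 0 higher in CNT also at an unadjusted p under 0.05), with a median of 1.72. Pvalb, the calcium buffer parvalbumin, was at 505, 326 and 449 TPM in DCT and at 0.0944, 0.0847 and 0 TPM in CNT (log2 difference 8.63, SE 0.29, adjusted p 2e-26). Calb1, the calcium buffer calbindin-D28k, was at 5088, 8854 and 7792 TPM in DCT and at 1077, 1321 and 1749 TPM in CNT (2.38, SE 0.37, adjusted p 4.28e-06). Slc8a1, the basolateral sodium-calcium exchanger, was at 131, 189 and 196 TPM in DCT and at 39.4, 46.7 and 74.7 TPM in CNT (1.70, SE 0.24, adjusted p 5.9e-07). Calb1 and Slc8a1 were thus well above 0 in both segments, whereas Pvalb was not above 0.13 TPM in any CNT piece.

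Of the receptors that act on calcium transport, Pth1r, Vdr and Kl were called higher in DCT and Casr was not called. Pth1r, the receptor for parathyroid hormone, was at 494, 699 and 509 TPM in DCT and at 24, 22.5 and 25.2 TPM in CNT (log2 difference 4.49, SE 0.32, adjusted p 7.7e-15 by limma). The vitamin D receptor gene Vdr was at 414, 542 and 463 TPM in DCT and at 124, 159 and 135 TPM in CNT (1.75, SE 0.34, adjusted p 0.000148). Kl, which encodes the FGF23 co-receptor klotho, was at 1742, 2252 and 2266 TPM in DCT and at 563, 527 and 774 TPM in CNT (1.76, SE 0.36, adjusted p 0.000331). These 3 had the DCT mice above the CNT mice, where 69.6% of the expressed genes had mice apart. Casr, the calcium-sensing receptor, was at 36.6 to 53.6 TPM in DCT and at 49.4 to 50.3 TPM in CNT, a difference of -0.20 (95% interval -0.59 to 0.19). Atp2b4, a plasma membrane calcium pump, was called (1.83, SE 0.23), at 6.59 to 6.92 TPM in DCT.

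S100g, the calcium buffer calbindin-D9k, was among the 10 most abundant transcripts of both segments, at 26933, 37249 and 31683 TPM in DCT and at 11646, 10846 and 15420.4 TPM in CNT (log2 difference 1.34, SE 0.44, adjusted p 0.0352 by limma). Its call ended in 12 of 20 alternative analyses, over which the adjusted p ran from 0.000746 to 1. Over the same alternatives its log2 difference ran from 0, under quantile normalization, to 1.69. Leaving out DCT mouse 1, 2 or 3 gave adjusted p of 0.0512, 0.148 and 0.0942, and leaving out CNT mouse 1 or 2 gave 0.114 and 0.132. The apical calcium channels were not called. Trpv5 was at 123, 176 and 167 TPM in DCT and at 107, 80 and 132 TPM in CNT, with overlapping mice and a difference of 0.56 (95% interval 0.005 to 1.11, adjusted p 0.27). Trpv6 was at 10.2 to 13.8 TPM in DCT and at 12.1 to 13.6 TPM in CNT, a difference of -0.091 (-0.59 to 0.41).

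**Figure D2:**
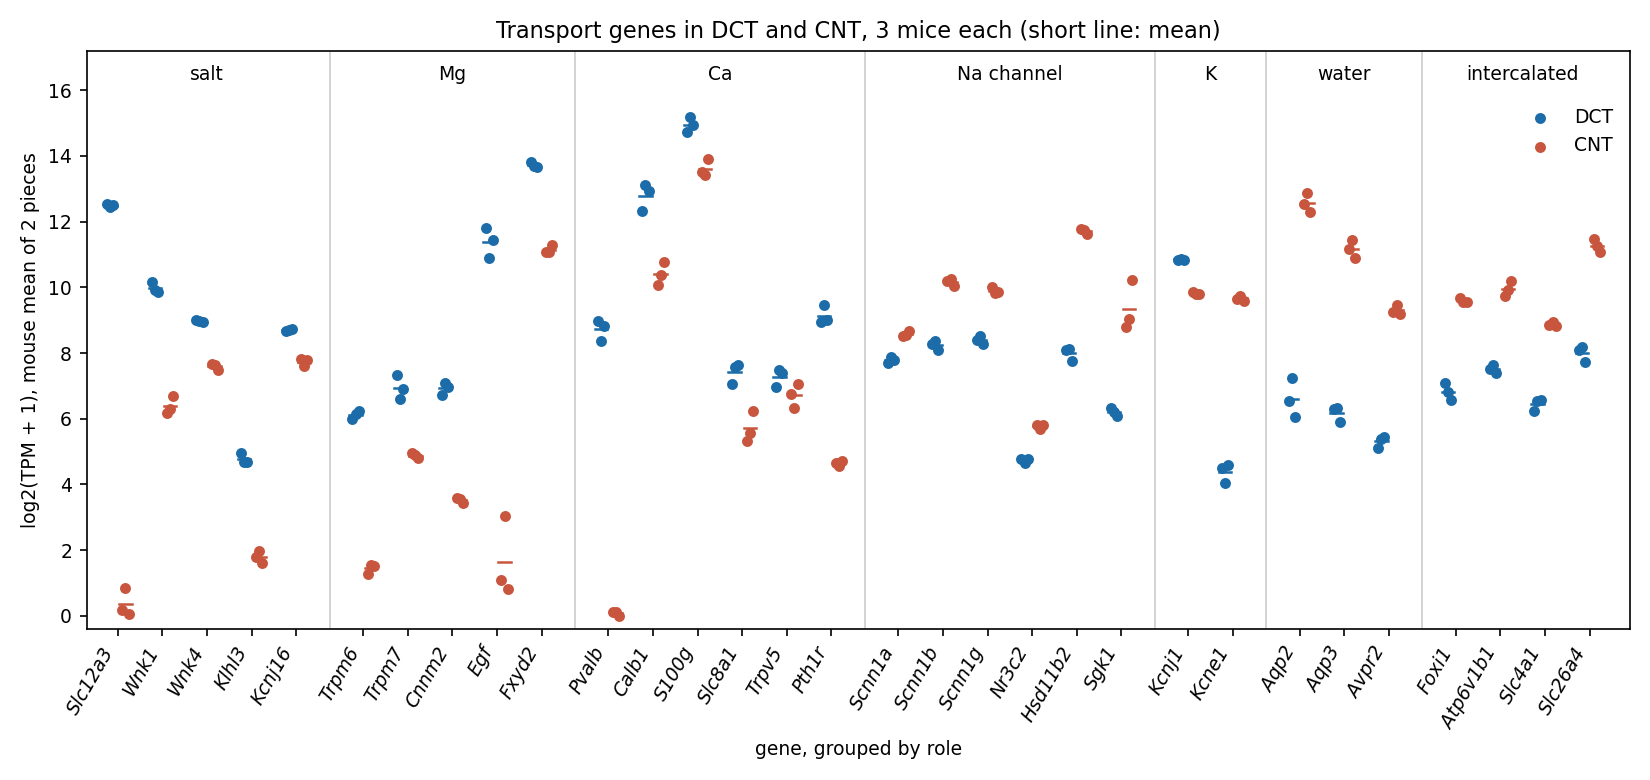
Levels of transport genes on the log2(TPM + 1) scale (y axis) for the 3 DCT mice and the 3 CNT mice, grouped by role along the x axis, with a short line at each mean. Slc12a3, Trpm6 and Pvalb lie far lower in CNT, Trpv5 overlaps, and the water channel and intercalated cell genes lie higher in CNT.

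The genes of the epithelial sodium channel and of aldosterone action numbered 14, of which 6 were called higher in CNT and 1 higher in DCT, with a median of -0.87; the background called higher in CNT was 9.32%. Scnn1b, the beta subunit of the channel, was at 306, 331 and 272 TPM in DCT and at 1173, 1210.5 and 1063 TPM in CNT (log2 difference -1.92, SE 0.23, adjusted p 1.61e-08 by limma). Scnn1g, the gamma subunit, was at 338, 362 and 306 TPM in DCT and at 1025, 898 and 927 TPM in CNT (-1.50, SE 0.18, adjusted p 1.32e-08). Scnn1a, the alpha subunit, was at 208, 234 and 218 TPM in DCT and at 367, 373 and 408 TPM in CNT, a difference of -0.80 (95% interval -1.34 to -0.26, adjusted p 0.0444) that did not reach the size threshold. The 3 subunits were thus well above 0 in every DCT mouse, but below every CNT mouse.

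Hsd11b2, the enzyme that shields the mineralocorticoid receptor from glucocorticoids, was at 274, 276 and 217 TPM in DCT and at 3474, 3429 and 3138 TPM in CNT (log2 difference -3.71, SE 0.23, adjusted p 3.82e-17 by limma). Sgk1, the kinase induced by aldosterone, was at 79.3, 73.1 and 66.4 TPM in DCT and at 444, 522 and 1197 TPM in CNT (-3.15, SE 0.57, adjusted p 5.15e-05), with CNT mouse 3 well above the other CNT mice. Nedd4l, the ubiquitin ligase that removes ENaC from the membrane, was at 63.4, 58.6 and 57.5 TPM in DCT and at 229.6, 244 and 230.3 TPM in CNT (-1.96, SE 0.16). None of these 3 genes had overlapping mice, as for 69.6% of the expressed genes. Nr3c2, the mineralocorticoid receptor, was at 26.3, 24.1 and 26.2 TPM in DCT and at 54.7, 50.6 and 55 TPM in CNT (-1.04, SE 0.30, adjusted p 0.015). This call ended in 8 of 20 alternatives (adjusted p 0.000623 to 0.317), among them the fits without DCT mouse 2 (0.0619), CNT mouse 1 (0.053) or CNT mouse 3 (0.0525). The glucocorticoid receptor Nr3c1 differed by -0.053 (95% interval -0.46 to 0.36).

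Klk1, tissue kallikrein, a secreted protease of the distal nephron, was the member of this list called higher in DCT. It stood at 44344, 55330.5 and 46292 TPM in DCT and at 4266, 3449.6 and 4895 TPM in CNT, a 11.6-fold ratio of means (log2 difference 3.54, SE 0.40, adjusted p 2.32e-09 by limma). Klk1 is one of a family of near-identical genes whose reads may have been split between members. A list of 13 genes, mostly of secreted and luminal proteins, had 4 called higher in DCT and 3 higher in CNT. The 3 were Cd8a, Nefl and Sult2a3, which do not encode secreted or luminal proteins. Beside Klk1, Egf and the thick-limb protein Umod, the fourth called higher in DCT was Ptgds, a prostaglandin D synthase. Its level was 25.6, 9.61 and 12.2 TPM in DCT and 0.734, 0.428 and 0.33 TPM in CNT (log2 difference 3.38, SE 0.39). Spp1, osteopontin, was among the 10 most abundant transcripts of DCT, at 10130.2, 13451 and 11993 TPM in DCT and at 4698, 3905 and 5719 TPM in CNT, and was not called (1.32, 95% interval 0.19 to 2.45).

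For potassium secretion, 11 genes were tested, 1 called in each direction, with a median of 0.0038. The background was 3.79% called higher in DCT and 9.32% higher in CNT. Kcnj1, the secretory channel ROMK, was at 1820, 1878 and 1836 TPM in DCT and at 923, 893 and 884 TPM in CNT (log2 difference 1.03, SE 0.28, adjusted p 0.009 by limma), barely past the size threshold and lost in 3 of 20 alternatives. Kcne1, described above, was the gene called higher in CNT, and its partner Kcnq1 was not called (-0.75, 95% interval -1.35 to -0.14). Kcnma1, the pore of the flow-activated BK channel, was at 0.0498 to 0.198 TPM in DCT and at 0.0149 to 0.177 TPM in CNT. At these levels no difference was detectable.

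Water transport and vasopressin signalling were described by 13 genes, of which 6 were called higher in CNT and 0 higher in DCT (limma; 0 higher in DCT also at an unadjusted p under 0.05), with a median of -0.73. Besides Aqp2, the basolateral water channels were called. Aqp3 was at 77.2, 78.9 and 58.5 TPM in DCT and at 2301, 2756 and 1918 TPM in CNT (log2 difference -5.00, SE 0.25, adjusted p 2.07e-20). Aqp4 was at 0, 0.00499 and 0.0863 TPM in DCT and at 9.8, 20.8 and 9.79 TPM in CNT (-3.73, SE 0.27, adjusted p 1.31e-14). Avpr2, the receptor through which vasopressin raises cyclic AMP, was at 33.5, 41.1 and 42.5 TPM in DCT and at 611, 699 and 584 TPM in CNT (-3.98, SE 0.33, adjusted p 6.86e-13). These 3 genes had every CNT mouse far above every DCT mouse. The other vasopressin receptor gene, Avpr1a, was at 46.1, 55.9 and 47.7 TPM in DCT and at 313, 311 and 278 TPM in CNT (-2.57, SE 0.30). Of the adenylyl cyclases on the list, Adcy5 was called, at 0.488 to 0.708 TPM in DCT and at 7.83 to 10.3 TPM in CNT, and Adcy6 was not (-0.27, 95% interval -0.69 to 0.14). The 6 called genes had DCT levels between 0.226% and 16.6% of the CNT level, with a median of 4.63%.

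Intercalated cell genes were called almost throughout. All 12 shared genes and all 5 type A genes were called higher in CNT, as were 4 of the 5 type B genes, against a background of 9.32%, and their medians were -2.38, -2.42 and -3.11. Foxi1, the transcription factor that specifies intercalated cells, was at 134, 112 and 94.3 TPM in DCT and at 819, 758 and 754 TPM in CNT (log2 difference -2.78, SE 0.31, adjusted p 1.7e-09 by limma). Atp6v1b1, a subunit of the apical proton pump, was at 180.2, 199 and 168 TPM in DCT and at 857, 958 and 1181 TPM in CNT (-2.44, SE 0.33). Car2, the cytosolic carbonic anhydrase, was at 483, 542 and 497 TPM in DCT and at 3149, 3191 and 3222 TPM in CNT (-2.65, SE 0.18). No DCT mouse reached a CNT mouse in any of these 3, where 69.6% of the expressed genes had mice apart.

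Of the type A genes, Slc4a1, the basolateral chloride-bicarbonate exchanger AE1, was at 74.5, 92.1 and 95 TPM in DCT and at 463, 488 and 452 TPM in CNT (log2 difference -2.42, SE 0.18, adjusted p 3.83e-14 by limma). The intracellular water channel gene Aqp6 was at 9.9, 10.3 and 10.4 TPM in DCT and at 112, 115 and 92.5 TPM in CNT (-3.25, SE 0.14). Both separated the segments. Of the type B genes, Slc26a4, the apical exchanger pendrin, was at 274, 289 and 209 TPM in DCT and at 2816, 2431 and 2175 TPM in CNT (-3.27, SE 0.37, adjusted p 3.33e-09), and the transcription factor gene Hmx2 was at 18, 25.6 and 19.5 TPM in DCT and at 363, 369.7 and 268 TPM in CNT (-3.92, SE 0.28). Slc4a8, a sodium-driven exchanger, was the member not called (-0.39, 95% interval -1.23 to 0.45). The DCT level of the 22 genes ranged from 6.32% to 74.7% of the CNT level, with a median of 17.9%. Their summed level over the shared list was 2752 to 3106 TPM in the DCT mice and 14336 to 15074 TPM in the CNT mice. Without mouse 1 of both segments, 11 shared, 3 type A and 4 type B genes were called. The call of Atp6v0a4 (-1.11, SE 0.33, adjusted p 0.0203) ended without DCT mouse 2 (adjusted p 0.0607), DCT mouse 3 (0.0888), CNT mouse 1 (0.0875) or CNT mouse 3 (0.0744), and its adjusted p ran from 0.000142 to 0.253 over its alternatives.

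**Figure D3:**
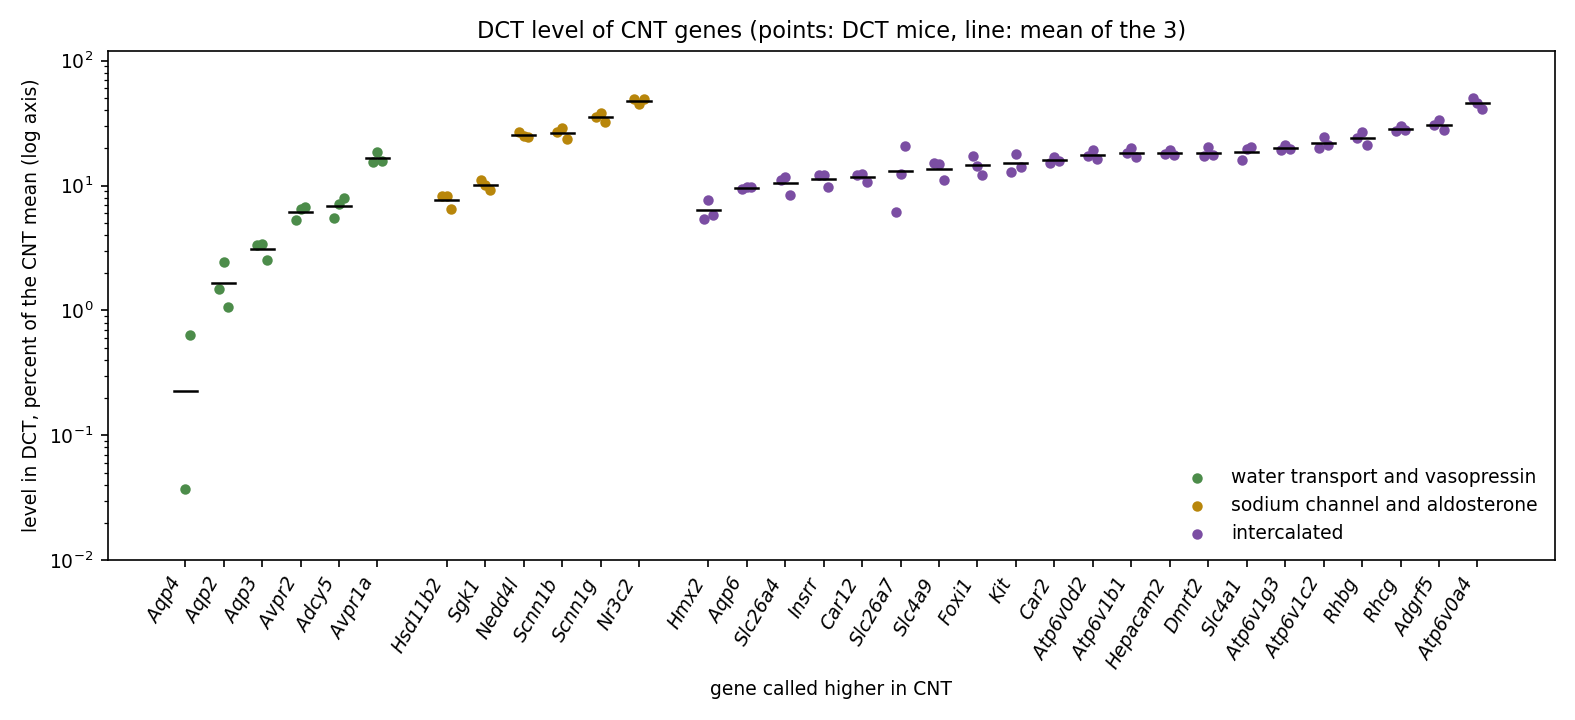
DCT levels as a percentage of the CNT mean, on a log y axis, for the genes called higher in CNT in the water, sodium channel and intercalated lists (x axis); points are the 3 DCT mice and the line is their mean. Aqp2 lies at 1.66% and Hsd11b2 at 7.63%, while the 21 called intercalated genes spread from 6.32% to 45.8%; DCT mouse 1 is listed at 0 for Aqp4 and is not drawn.

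Aqp2, Hsd11b2, Slc26a4 and Foxi1, picked after their values were seen, differed in DCT between the pieces of a mouse. In DCT mouse 3, piece a had 21.8 TPM of Aqp2, 108 TPM of Hsd11b2, 123 TPM of Slc26a4 and 55 TPM of Foxi1. Piece b of that mouse had 194 TPM of Aqp2, 433 TPM of Hsd11b2, 354 TPM of Slc26a4 and 161 TPM of Foxi1. Slc12a3 in these pieces was 7013 and 4836 TPM, so the piece with more of those 4 transcripts had less of the DCT marker. In DCT mouse 2 piece a was the one with more, at 174 TPM of Aqp2, 304 TPM of Hsd11b2, 333 TPM of Slc26a4 and 140.2 TPM of Foxi1 in piece a, and 130, 250.4, 250.3 and 89.6 TPM in piece b. Slc12a3 was 5233 TPM in its piece a and 5824 TPM in its piece b. In DCT mouse 1 the 4 transcripts, in the same order, were at 63.6, 202, 212 and 116 TPM in piece a and at 131, 370.1, 353 and 156 TPM in piece b, with Slc12a3 at 6278 and 5507 TPM. In all 3 mice the piece with more of the 4 transcripts thus had less Slc12a3, a description of 6 pieces with no test. Among the 22 intercalated genes, all but Atp6v1b1, Atp6v0a4 and Slc4a8 had the same piece order as the 4 transcripts in each mouse. Car2, for example, was at 373 and 624 TPM in pieces a and b of mouse 1. It was at 610 and 481 TPM in those of mouse 2, and at 290 and 851 TPM in those of mouse 3. Atp6v1b1 was at 168 and 168 TPM in pieces a and b of mouse 3. In those of mouse 1, Atp6v0a4 was at 63.8 and 61.1 TPM and Slc4a8 at 11.42 and 10.25 TPM. Fxyd4 in DCT was at 1.13 to 1.75 TPM in the 3 pieces a and at 5.15 to 12.8 TPM in the 3 pieces b, far below the 1652 TPM of the lowest CNT piece. In mouse 2 the order of Fxyd4 was thus opposite to that of the 4 transcripts. The part of dissection boundaries in these values was not tested.

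**Figure D4:**
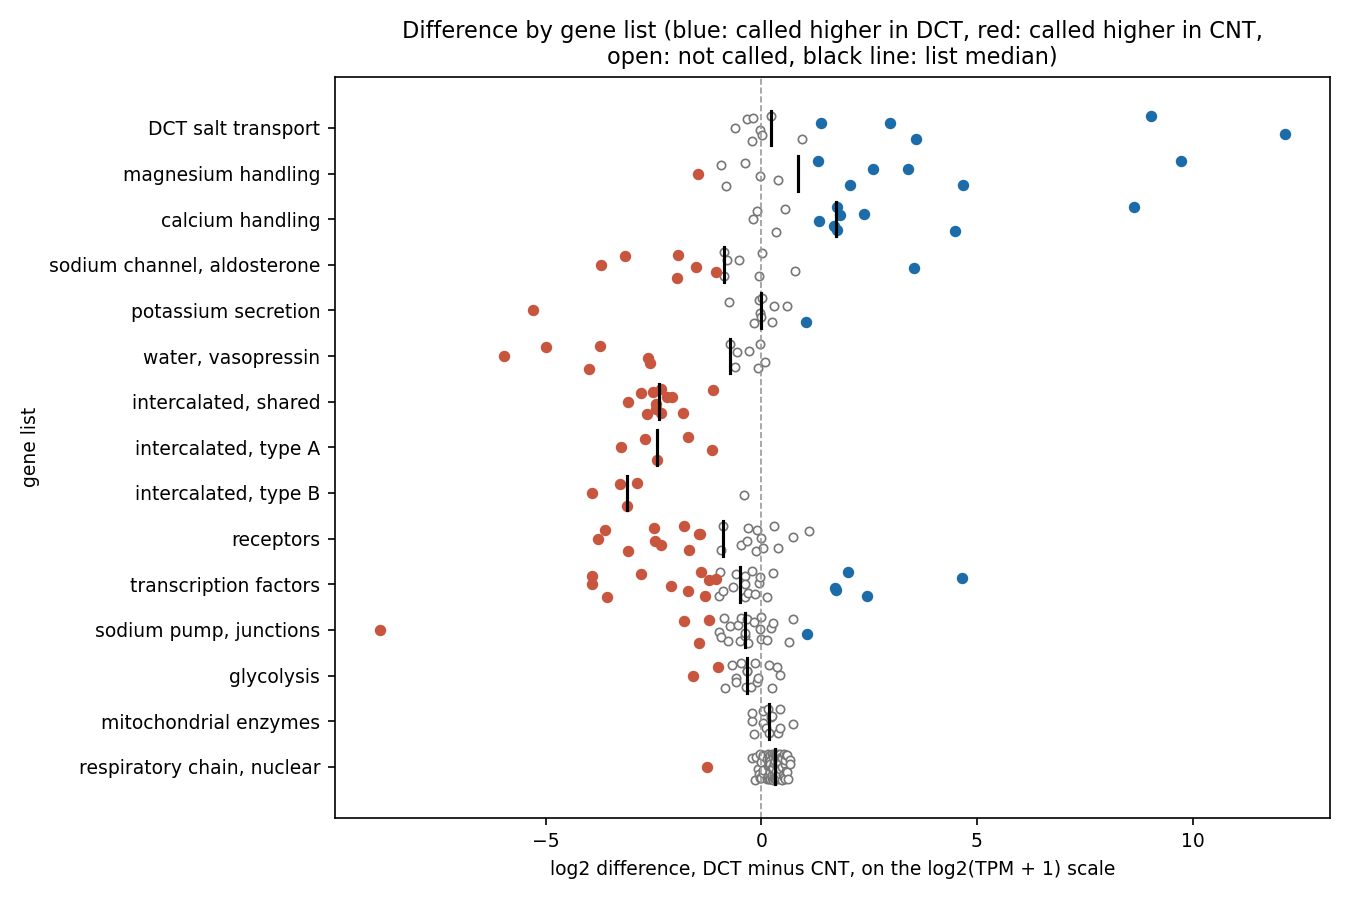
Log2 differences, DCT minus CNT (x axis), of the tested genes of each list (y axis), with blue and red points for genes called higher in DCT and in CNT, open points for genes not called and a black line at the list median. The calcium list has its median at 1.72 and members on both sides of 0. The 3 intercalated lists have their medians between -2.38 and -3.11 and every member below 0.

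Among 30 transcription factors, 5 were called higher in DCT and 10 higher in CNT. Emx1, a homeobox factor, was at 86, 72.9 and 74.2 TPM in DCT and at 13.1, 12.7 and 14.2 TPM in CNT (log2 difference 2.45, SE 0.26, adjusted p 5.44e-10 by limma). Sall3, a zinc finger factor, was at 30.2, 27.9 and 25.9 TPM in DCT and at 0.0893, 0.105 and 0.287 TPM in CNT (4.65, SE 0.27, adjusted p 3.78e-18). Lhx1, a LIM homeobox factor of nephron development, was at 74.1, 45.9 and 60.2 TPM in DCT and at 17.7, 15.8 and 19 TPM in CNT (1.70, SE 0.32). These 3 had no overlapping mice, as for 69.6% of the expressed genes. Esrrb (2.02) and Sox9 (1.72) were the others, at 3.96 to 4.45 TPM and 3.06 to 5.57 TPM in DCT.

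Towards CNT, Gata2, a zinc finger factor that acts on the Aqp2 gene in collecting duct cells, was at 22.2, 19.4 and 13.6 TPM in DCT and at 227, 216 and 232 TPM in CNT (log2 difference -3.57, SE 0.29, adjusted p 4.23e-13 by limma). Its relative Gata3 was at 49.1 to 52 TPM in DCT and at 93.5 to 95.6 TPM in CNT, a difference of -0.88 (95% interval -1.41 to -0.36) under the size threshold. The epithelial factor Ehf was at 10.7, 5.99 and 9.71 TPM in DCT and at 167, 119 and 151 TPM in CNT (-3.93, SE 0.33). Pax8, a regulator of kidney development, was at 54.9, 43.4 and 56.2 TPM in DCT and at 233, 209.7 and 221 TPM in CNT (-2.09, SE 0.23). Foxi1, Hmx2, Nr3c2, Elf3, Elf5, Klf5 and Pax2 were the other 7 called higher in CNT. Esrrg, a regulator of mitochondrial genes, differed by 0.14 (-0.47 to 0.75). Of 35 tested Hox genes, 1 was called higher in DCT (Hoxc10) and 2 higher in CNT, Hoxb9 at 18.2, 19.9 and 19.2 TPM in DCT and at 48.7, 62.3 and 46.3 TPM in CNT (-1.40, SE 0.19) and Hoxd3 (-1.56, SE 0.24). Hoxc10 (1.08, adjusted p 0.00536) was lost without DCT mouse 2 (adjusted p 0.0722) or CNT mouse 2 (0.0696), within a range of 0.000191 to 0.192 over its alternatives. Under median ratio rescaling 5 Hox genes were called higher in DCT and 2 higher in CNT. On TPM as deposited, 3.79% of the expressed genes were called higher in DCT and 9.32% higher in CNT.

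Of 23 receptors for hormones and nucleotides, 10 were called higher in CNT and 0 higher in DCT (limma; 2 higher in DCT at an unadjusted p under 0.05), with a median of -0.88. Under quantile normalization 7 were called higher in CNT, without P2ry2, Ednrb and Bdkrb2. The prostaglandin E2 receptor gene Ptger1 was at 1.11, 1.17 and 1.28 TPM in DCT and at 25.4, 35.7 and 26.7 TPM in CNT (log2 difference -3.78, SE 0.31, adjusted p 4.56e-13), and Ptger4 was at 0.838, 0.469 and 0.828 TPM in DCT and at 14.7, 12.3 and 13.2 TPM in CNT (-3.08, SE 0.34). A further receptor of this family, Ptger3, was at 19.4, 14.6 and 19.9 TPM in DCT and at 67.2, 62.9 and 63.1 TPM in CNT (-1.80, SE 0.29). All 3 had the CNT mice above the DCT mice, where 69.6% of the expressed genes had mice apart. Adora1, the adenosine A1 receptor, was at 0.159, 0.59 and 0.235 TPM in DCT and at 17.1, 15.6 and 13 TPM in CNT (-3.62, SE 0.27). The secretin receptor Sctr (-2.45), the nucleotide receptors P2ry14 (-2.50) and P2ry2 (-1.43), the endothelin receptor Ednrb (-1.67) and the bradykinin receptor Bdkrb2 (-1.45) were also called. Gcgr, the glucagon receptor, was at 144 to 180.3 TPM in DCT and at 116 to 151 TPM in CNT and was not called (0.30, 95% interval -0.22 to 0.81).

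The sodium pump and junction list held 26 tested genes, 1 called higher in DCT and 4 higher in CNT, beside a background of 3.79% and 9.32%. Among claudins, which set the paracellular permeability, Cldn4 was at 21, 20.3 and 17 TPM in DCT and at 77.3, 51.8 and 83.9 TPM in CNT (log2 difference -1.79, SE 0.29 by limma), and Cldn3 was called at -1.22. The Cldn3 call ended under both rescalings, at -0.88 (adjusted p 0.0727) under median ratio rescaling and -0.91 (adjusted p 0.0828) under quantile normalization. Cldn8, a claudin of the aldosterone-sensitive nephron, was at 766 to 849 TPM in DCT and at 1059 to 1239.9 TPM in CNT and was not called (-0.46, 95% interval -1.06 to 0.13). Fxyd4 was the third called higher in CNT. Cldn16, a claudin of the thick limb, was the fourth, with overlapping mice (-1.44, SE 0.41, adjusted p 0.0132). Its call ended without DCT mouse 2 (adjusted p 0.0596), DCT mouse 3 (0.359) or CNT mouse 3 (0.0887), within a range of 7.99e-05 to 0.408.

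Genes of energy metabolism were mostly not called. Of 86 tested nuclear genes of the respiratory chain, 0 were called higher in DCT and 1 higher in CNT by limma, while 75 had a difference above 0 and the median was 0.31, against -0.30 over expressed genes. At an adjusted p under 0.05 with no size threshold, 26 were higher in DCT and 1 higher in CNT, and at an unadjusted p under 0.05, 50 and 1. Of the expressed genes, 5.33% were higher in DCT and 22% higher in CNT at the adjusted threshold, and 8.11% and 35.8% at the unadjusted one. The summed level was 119588 to 124686 TPM in the DCT mice and 93986 to 101703 TPM in the CNT mice. The median was 0.65 under median ratio rescaling and 0.33 under quantile normalization. Median ratio rescaling left 0 called higher in CNT and 1 higher in DCT (Ndufb4, a complex I subunit named after its values were seen), and quantile normalization left 0 called in either direction. The gene called higher in CNT was Cox7a1, the form of a cytochrome oxidase subunit known from heart and muscle, at 233, 209 and 229.7 TPM in DCT and at 469, 547 and 597 TPM in CNT (-1.25, SE 0.37, adjusted p 0.0188). Its call ended without DCT mouse 2 (0.0732), DCT mouse 3 (0.0517), CNT mouse 2 (0.0594) or CNT mouse 3 (0.0794), and its adjusted p ran from 0.00149 to 0.316 over its alternatives.

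Of the 13 protein genes of the mitochondrial genome, 6 were listed at 0 in all 93 samples, which is no measure of their expression. For the 7 with values every DCT mouse was above every CNT mouse, as the mice were apart for 69.6% of the expressed genes, and 0 were called (limma; 5 at an unadjusted p under 0.05), with a median of 0.70. Under median ratio rescaling 3 were called higher in DCT. mt-Co1, a core subunit of cytochrome oxidase, was at 8379, 8564 and 8896 TPM in DCT and at 5077, 4455 and 4824 TPM in CNT (0.85, SE 0.23, adjusted p 0.00698). Among 14 enzymes of the citric acid cycle and fatty acid oxidation, 0 were called (limma; 4 higher in DCT at an unadjusted p under 0.05). Cpt1a, the entry enzyme of mitochondrial fatty acid oxidation, had the largest difference of that list, at 396 to 423 TPM in DCT and at 234 to 246 TPM in CNT (0.75, SE 0.23, adjusted p 0.0209). Under median ratio rescaling Cpt1a was called, at 1.10 (adjusted p 5.42e-05), the one call of that list.

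Of 18 glycolytic genes, 2 were called higher in CNT and 0 higher in DCT (limma; 8 higher in CNT and 0 higher in DCT at an unadjusted p under 0.05). These counts were near the background, where 9.32% of expressed genes were called higher in CNT and 35.8% were higher in CNT at the unadjusted threshold. The list median was -0.34, beside -0.30 over the expressed genes, and became -0.0003 under median ratio rescaling. Slc2a1, the glucose transporter GLUT1, was at 76.4, 87.5 and 88.6 TPM in DCT and at 271, 261 and 234 TPM in CNT (log2 difference -1.59, SE 0.24, adjusted p 2.83e-06). Pfkl, a phosphofructokinase, was at 69.6 to 75.3 TPM in DCT and at 132 to 154 TPM in CNT (-1.01, SE 0.18), a size at the threshold. It was -0.99 without DCT mouse 2, -0.99 without DCT mouse 3, -0.98 without CNT mouse 2 and -0.97 without CNT mouse 3. Median ratio and quantile rescalings gave -0.67 (adjusted p 0.00229) and -0.78 (adjusted p 0.000188). Ldha, a lactate dehydrogenase, was at 626, 698 and 671 TPM in DCT and at 1091, 1209 and 1264 TPM in CNT (-0.84, SE 0.15, adjusted p 4.34e-05), under the size threshold. Of 11 cell cycle genes, 0 were called (limma; 2 higher in CNT at an unadjusted p under 0.05).

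Genes were also tested for standing above both neighbours, using CTAL (5 mice) before the DCT and the cortical collecting duct (CCD, 5 mice) after the CNT. DCT exceeded both CTAL and CNT in 176 genes (0.521% of those tested), by an adjusted p under 0.05 and a log2 margin of at least 1 in the intersection-union test on limma's contrasts. The largest margins among genes at 10 TPM or more were those of Slc12a3 (12.12, adjusted p 1.69e-28), Pvalb (8.63), Trpm6 (4.68), Lrrc52 (4.41) and Uroc1 (4.28). Sall3 (3.52), Cnnm2 (3.40), Klhl3 (2.99), Wnk1 (2.96) and Emx1 (2.45) had the next largest margins among the genes described above. Klk1, Calb1, Trpm7, Atp2b4, Kl, Vdr, Lhx1, Slc8a1, Fxyd2, Sfrp1 and Sox9 also passed, the last of them with a margin of 1.28. Egf, Ppp1r1a and Gpx6 did not, having means of 16498, 2023 and 829 TPM in CTAL against 2765, 885 and 207 TPM in DCT.

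CNT exceeded both DCT and CCD in 18 genes (0.0533% of those tested). Cd8a, known as a T cell co-receptor subunit, had the largest margin: it was at 0.274, 0.61 and 1.06 TPM in DCT and at 32.6, 41 and 22 TPM in CNT and at 4.64 ± 3.15 TPM in CCD (SD, n = 5, margin 2.75, adjusted p 2.65e-08 by limma). Cd3e, a subunit of the T cell receptor complex, was at 0.456, 0.0488 and 0.00995 TPM in CNT. Ptprc, the common leukocyte antigen CD45, was at 4.02, 3.2 and 2.7 TPM in DCT and at 12.4, 7.44 and 10.4 TPM in CNT, with every CNT mouse above every DCT mouse. Its difference was not called (-1.35, SE 0.48, adjusted p 0.0662 by limma) but was called in 6 of 20 alternatives, over which the adjusted p ran from 0.00136 to 0.333. The part of leukocyte transcripts in the Cd8a difference was not tested. Clec18a, a C-type lectin, was at 16.5, 9.2 and 8.98 TPM in CNT and 0.281 TPM in CCD (margin 1.91). Nefl, the neurofilament light chain, was at 15.2, 13.8 and 11.1 TPM in CNT and 2.86 TPM in CCD (1.91). Cd8a, Clec18a and Nefl were lower on both sides of the CNT by the rule that selected them. Prr5l, a partner of the mTORC2 kinase complex, was at 46, 32.3 and 34.6 TPM in CNT and 10.6 TPM in CCD (1.72), and Max, the partner of Myc, was at 30.7, 38 and 41.8 TPM and 9.23 TPM (1.62). The others were Qpct, Musk, Serpinb1a, Ptger3, Sult2a3, Depdc7, Igf2bp2, Gm29909, Rab5c, Sctr, Fgl2, Eno2 and Ccl20, several of them named after their values were seen. The number passing was 8 without CNT mouse 3 and 9 without mouse 1 of both segments.

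Of the genes higher in CNT than in DCT, Aqp2, Hsd11b2, Scnn1b and Slc26a4 were followed into the collecting duct. Aqp2 was at 13971 ± 1874 TPM in CCD (SD, n = 5) and 6179 ± 1240 TPM in CNT (n = 3), which was not called (adjusted p 0.355 by limma). Every CCD mouse, at 12274 to 17021 TPM, was nevertheless above every CNT mouse, at 5042 to 7501 TPM. Means in CCD and CNT were 3594 and 3347 TPM for Hsd11b2, 1333 and 1149 TPM for Scnn1b and 1767 and 2474 TPM for Slc26a4, and none of these was called. Trpv5 was lower in CCD, at 8.22 ± 2.35 TPM, after 156 ± 28.2 TPM in DCT and 106 ± 25.9 TPM in CNT (adjusted p 2.08e-14 for CNT against CCD). The mean of Klk1 went from 9233 TPM in CTAL to 48656 TPM in DCT, then to 4203 TPM in CNT, with 132 TPM left in CCD.

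**Figure D5:**
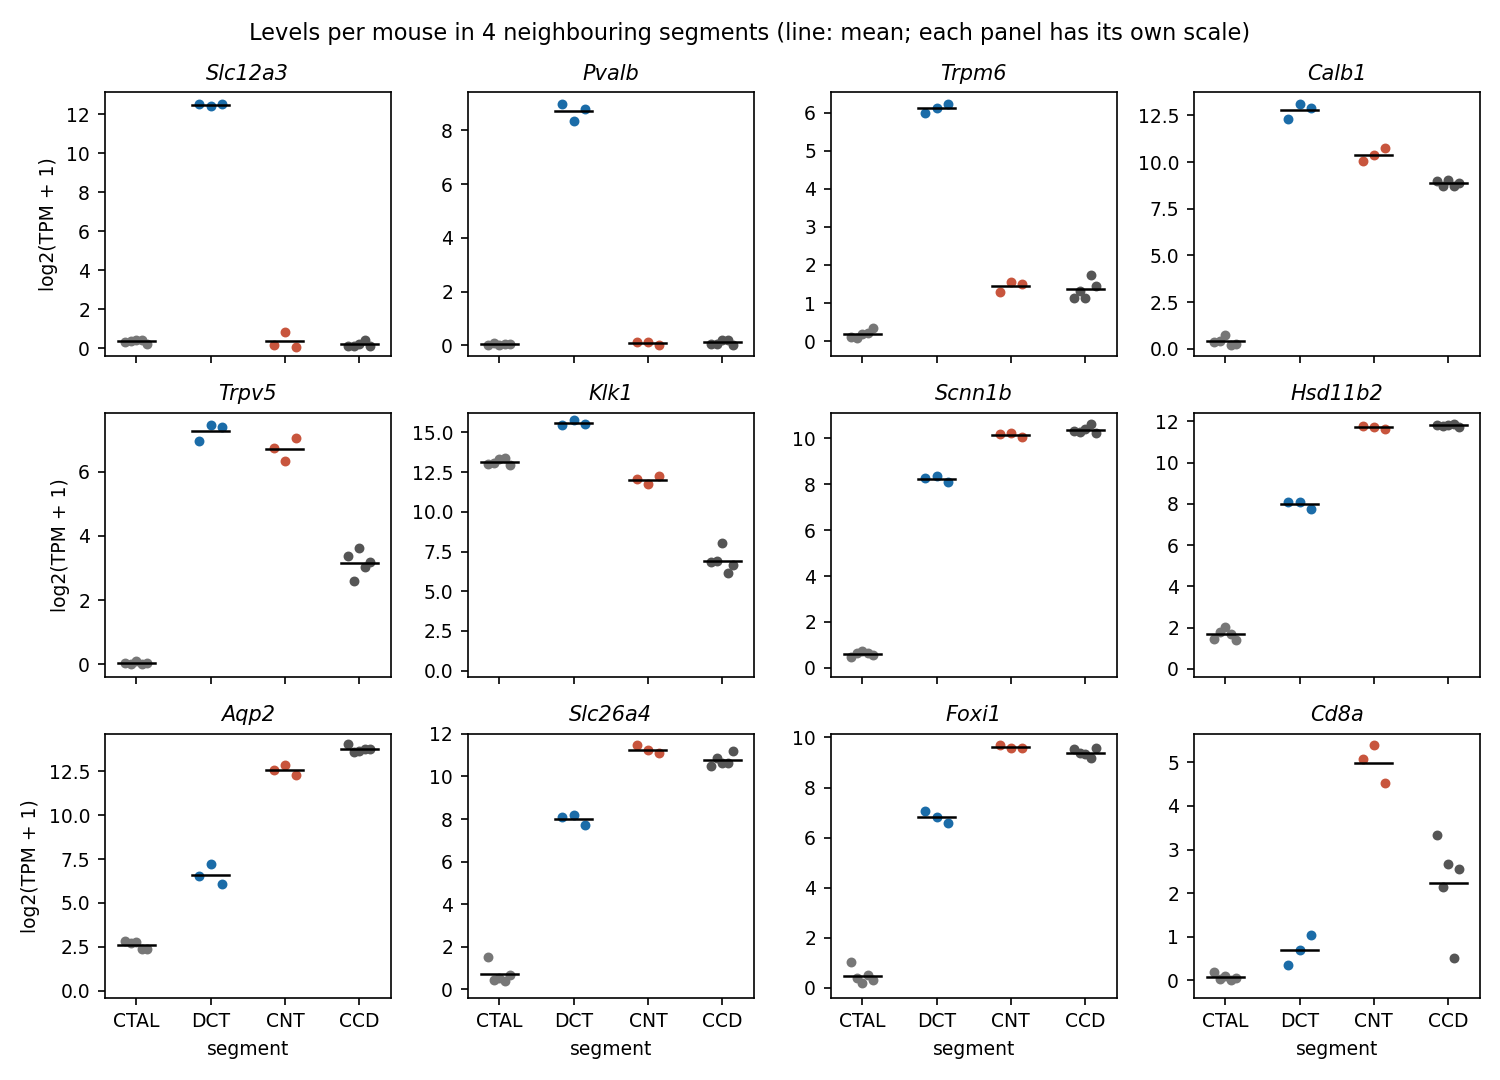
Levels per mouse on the log2(TPM + 1) scale (y axis, a separate scale per panel) in CTAL, DCT, CNT and CCD (x axis), with a line at each mean. Slc12a3 peaks in DCT, Aqp2 is high in CNT and CCD, Trpv5 has means of 156 TPM in DCT and 106 TPM in CNT, and Cd8a is highest in CNT.

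Markers of cells outside the DCT and CNT were examined as lists. The 6 thick-limb genes summed to 1382 to 2271 TPM in DCT and 180.2 to 248 TPM in CNT, with 2 called higher in DCT and 2 higher in CNT. Umod, uromodulin, was at 2169.6, 1359 and 1848 TPM in DCT and at 107, 176 and 128 TPM in CNT (log2 difference 3.71, SE 0.43). Slc12a1 was called (2.68, adjusted p 0.00593 by limma) but rested on DCT mouse 1: without it the difference was 1.27 (adjusted p 0.29). The call also ended without CNT mouse 1 (adjusted p 0.0505) or CNT mouse 3 (0.0522), within a range of 8.3e-06 to 0.94. Proximal tubule genes, 0 of 7 called (limma; 1 at an unadjusted p under 0.05), summed to 158, 16.9 and 22.3 TPM in DCT and 115, 11.4 and 8.63 TPM in CNT, so mouse 1 of both segments stood apart in the sum. Different genes lay behind it. In DCT mouse 1 Slc34a1 was at 25.6 TPM in piece a and 290 TPM in piece b. In CNT mouse 1 Slc34a1 was at 20.7 and 14.7 TPM in pieces a and b, and Kap at 48.1 and 178 TPM. Without mouse 1 of both segments, 1607 genes were called, 431 of them higher in DCT. Endothelial genes (0 of 7 called, 0 at an unadjusted p under 0.05) summed to 173 to 431 TPM in DCT and 289 to 319 TPM in CNT. Leukocyte genes (0 of 7, 1 at an unadjusted p) summed to 211 to 336 TPM and 185 to 463 TPM. Erythroid genes (0 of 5, 0 at an unadjusted p) summed to 0.14 to 0.431 TPM and 0.0583 to 0.269 TPM, with Hba-a2 and Hbb-bt listed at 0 throughout.

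Of 7 stromal genes, Dcn, the proteoglycan decorin, was called, at 2.87, 1.89 and 1.62 TPM in DCT and at 72.1, 79 and 62.1 TPM in CNT (log2 difference -4.54, SE 0.57, adjusted p 4.23e-08 by limma). The stromal collagen Col3a1 was at 0.428 to 2.16 TPM in DCT and at 0.252 to 2.48 TPM in CNT, and Dcn was also at 55.6 ± 3.16 TPM in CCD (SD, n = 5). Early-response genes, which tissue handling is known to induce, summed to 342, 366 and 806 TPM in DCT and 3384, 622 and 1654 TPM in CNT, with 2 of 12 called higher in CNT (median -1.71; 8 at an unadjusted p under 0.05 by limma). Both rescalings left 0 called, while 8 were called with every piece and the mouse as a random block, and 4 without CNT mouse 2. The 2 called were Atf3 (-2.58) and Nr4a1 (-2.01), lost in 13 of 20 and 10 of 20 alternatives. Atf3 was lost without DCT mouse 1 (adjusted p 0.15), DCT mouse 2 (0.171), CNT mouse 1 (0.13) or CNT mouse 3 (0.123), within 0.000818 to 0.349, and Nr4a1 without DCT mouse 1 (0.158), DCT mouse 2 (0.0995) or CNT mouse 1 (0.439), within 0.000926 to 0.925. Sgk1 was highest in CNT mouse 3, while the early-response sum was highest in CNT mouse 1. The part of handling in the differences above was not tested.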

How the data were processed

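Tubule segments were dissected by hand, and RNA was extracted with Direct-zol, amplified with SMARTer V4 from polyadenylated RNA and made into libraries with Nextera XT, per the labels' protocols. The authors deposited 1 table of TPM values for 54532 genes in 93 samples. STAR 2.5.4a, RSEM 1.3.0, Cell Ranger 3.0.2 and Seurat are named in the submitters' processing notes, with no roles given, and the genome build and annotation are not given in the sources used here. TPM keeps no sequencing depth, so the depth is unknown and no counting error is given.

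Pieces of 1 mouse number and segment were averaged as log2(TPM + 1), which gave 53 mouse number and segment combinations taken as 53 mice, and 0 sample columns were left unused. The labels do not say whether a mouse number is the same animal in different segments, and p-values measure the spread between these samples. Genes at 1 TPM or more in at least 3 mice (33793) were fitted with limma 3.58.1 (R 4.3.3) with an intensity trend over all 15 groups, which share 1 estimate of the spread, and p-values were Benjamini-Hochberg adjusted over all tested genes. Where a symbol had several identifiers, the one with the higher mean was used. The genes described are those of the gene lists, the 12 largest differences in each direction, the 10 most abundant genes of each segment and the 5 largest margins over both neighbours, the ranked ones among genes at 10 TPM or more. The members and lists were chosen with earlier results of these data known. Some genes counted in the lists are not reported here by name.

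Alternatives changed the pseudocount, the filter, the scaling, the averaging of pieces, the samples in the fit and the mice included. The procedure was tested on simulated data. Promoters were read from a RefSeq table of GRCm38.p6, matched by symbol. Tables and plots used Python 3.11.15, pandas 2.3.3, numpy 2.4.6 and matplotlib 3.10.9.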

Additional observations from a re-analysis of the deposited data

How the results depend on the processing

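Of 338 tested genes of the lists and rankings, 117 were called, 87 of them under each of the 20 alternatives that gave a value; 30 were lost under at least 1 and 0 changed direction. With a pseudocount of 5, 1055 genes were called, 328 higher in DCT and 727 higher in CNT, and quantile normalization left 756 higher in CNT. The number of genes with CNT above both DCT and CCD was 9 with a pseudocount of 0.1, 9 with piece a only and 9 without mouse 1 of both segments, an alternative chosen after seeing the data. The number of nuclear respiratory chain genes called was 0 with a pseudocount of 0.1, 0 under quantile normalization, 0 with piece b only and 0 without mouse 1 of both segments. Median ratio rescaling ended the calls of Nr3c2, Atp6v0a4, Adgrf5, Cldn3, Pfkl, Cox7a1, Atf3 and Nr4a1. Quantile normalization ended those of the same genes except Adgrf5, and of S100g, Kcnj1, Slc26a7, Pax2, Cldn16, Bdkrb2, Ednrb, P2ry2 and Sult2a3. A pseudocount of 0.1 ended the calls of Vdr (1.76, adjusted p 0.0503 by limma) and Lhx1 (1.75, adjusted p 0.122). It also ended those of S100g, Kcnj1, Atp6v1g3, Atp6v0a4, Hoxc10, Atf3 and Nr4a1. The calcium list then had 6 genes called higher in DCT. The cause of these shifts was not tested. Leaving out 1 mouse at a time gave 1642 to 1789 genes in all, 473 to 491 higher in DCT, 1151 to 1316 higher in CNT, 8 to 17 with CNT above both neighbours, 156 to 169 with DCT above both neighbours and 0 to 1 respiratory chain genes.

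With the mouse number as a replicate block, 1652 genes were called, 481 higher in DCT and 1171 higher in CNT, against 1825 from the same mice without the block. Deviations from the segment means correlated at 0.2, 0.124 and 0.079 between mice of the same number and at -0.162 to 0.039 between other pairs, across 13311 genes. Each mouse correlated best with its own number, which is a hint from the data and not from the design. The labels do not say whether a number marks 1 animal, and the numbers were not taken to pair the mice. With 3 mice a segment and no depth, low transcripts such as Kcnma1 give no detectable difference.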

Other observations

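The 3 DCT mice did not rank alike across transport lists. Among the 12 calcium genes, DCT mouse 1 was the lowest mouse for 8, DCT mouse 2 for 3 and DCT mouse 3 for 1. Among 12 genes of salt transport at 1 TPM or more, DCT mouse 1 was the highest for 8 and DCT mouse 3 for 4, and DCT mouse 1 was the lowest for 2. For 11 magnesium genes DCT mouse 1 was the highest for 7 and the lowest for 3, and for 5 thick-limb genes it was the highest for 4. These are values of single mice with no test. How often each mouse was highest or lowest over all expressed genes was not counted, so the counts have no background.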
